A study of Bos taurus with 31 samples.

Results

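Liver RNA from 31 lactating German Holstein cows was compared for the interaction of glyphosate (GLY) residues with the concentrate feed proportion (CFP) of the ration. The interaction is the difference of differences, that is the log2 fold change of GLYHC against GLYLC minus the log2 fold change of CONHC against CONLC. It asks which genes answered the diet in one treatment and not, or oppositely, in the other. All 31 cows entered it, as did 15916 of the 24616 genes of the count table, namely those whose reads over all cows came to 20 or more. CONLC cows (n = 8) received a low CFP and CONHC cows (n = 8) a high CFP in rations made with control feedstuffs, which still carried background GLY. GLYLC cows (n = 7) and GLYHC cows (n = 8) received the low and the high CFP with peas, wheat grain and straw from crops treated with the GLY formulation Roundup Record. One biopsy per cow was taken by liver puncture at the end of the feeding period, and the samples of 1 GLYLC cow had been lost. Total GLY intake followed feed intake and was higher in GLYHC than in GLYLC, so CFP and the amount of GLY cannot be told apart within the GLY cows.

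Glyphosate inhibits an enzyme of aromatic amino acid synthesis in plants and many microbes that animals lack. A diet richer in concentrate brings more rumen propionate to the liver, the main substrate of gluconeogenesis in the cow, while hepatic amino acid handling, fatty acid oxidation and the secretion of plasma proteins adjust to nutrient supply. An interaction would mean that these adjustments differed with the GLY residues.

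The libraries held between 11675775 and 36675542 counted reads, and no pair of columns was identical. Levels are given as counts per 1000000 reads (CPM) after scaling by trimmed mean of M-values. The 14 hepatocyte markers together made up 114400 to 228000 CPM, and the lowest sum was that of cow 912 of GLYLC. This cow stood apart. The 15 smooth muscle markers summed to 2160 CPM in that cow and to between 227 and 969 CPM in the other 30 cows, and the 14 tested markers of intestinal epithelium summed to 732 CPM against 78.9 to 430 CPM elsewhere. The intestinal genes BCO1 and S100G stood at 46.8 and 176 CPM in cow 912 and at 0 and at most 2.89 CPM in the other GLYLC cows. It also had the lowest hepatocyte score, the median over markers of log2 CPM minus that gene's median over cows, at −0.70 against −0.21 in the next cow. Values without cow 912 are therefore given beside many of the results. A result printed without such a value may also have moved when that cow was left out. In such bulk samples, fewer cells of a type and less RNA per cell cannot be told apart.

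No gene passed the interaction test at the thresholds of the study, an unadjusted p under 0.05 and an adjusted p under 0.1 (edgeR quasi-likelihood F test with Benjamini-Hochberg adjustment, 0% of 15916 genes called). At an unadjusted p under 0.05 stood 670 genes, 4.21% of those tested, 303 with a positive and 367 with a negative interaction (1.9% and 2.31%). DESeq2 called 1 gene, GPT2, and limma voom called none. Apart from GPT2 the lowest adjusted p was 0.9985, so each gene below is described by its values and none but GPT2 was called for the interaction by any of these tools. Across the 12180 genes with at least 1 CPM in at least 7 cows, the standard error of the interaction had a median of 0.196 log2 units, and the median 95% confidence limit lay 0.399 log2 units to either side of the estimate. In genes with limits as wide as that, smaller differences did not reach an unadjusted p under 0.05 with this number of cows. A call at an adjusted p under 0.1 over 15916 genes asked for more than that. GPT2, with an interaction of 1.33 and a standard error of 0.26, had an adjusted p of 0.251 in edgeR.

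More genes were called between the diets in the GLY cows than in the control cows, and a larger count on one side is not a test of the difference. GLYHC against GLYLC gave 32 called genes (0.201%) and 1991 at an unadjusted p under 0.05 (12.5%). CONHC against CONLC gave no called gene with edgeR (0%) and 949 at an unadjusted p under 0.05 (5.96%), while DESeq2 called 27 genes there and limma voom 4. In the GLY cows DESeq2 called 143 and limma voom none, so the order of the treatments turned round with limma voom. It also turned round without cow 912, when edgeR called 7 genes in the control and none in the GLY cows, and DESeq2 called 52 and 24, an alternative chosen after seeing the data. All 32 calls in the GLY cows were lost in edgeR without GLYLC 912, without GLYHC 32 and without GLYHC 154. Of the 32 genes called in the GLY cows, 16 had more than 50% of their summed CPM in cow 912. Of the same 32, 22 had an interaction p under 0.05 with all cows and 5 without cow 912, which is a description, since the GLY contrast is one of the components of the interaction. These 5 were SPRY2, UGCG, TNFRSF21, KRT1 and KIAA1549, named here after their values were seen. The adjusted p of all 5 was thus over 0.1 when any 1 of those cows was left out. UGCG, the glucosylceramide synthase, rose by 0.51 in the GLY cows with all cows included (adjusted p = 0.0848, edgeR) and differed by 0.09 in the control cows. TNFRSF21, a death-domain receptor, rose by 0.68 in the GLY cows (adjusted p = 0.0848, edgeR) and differed by 0.15 in the control cows. The calls of UGCG and TNFRSF21 in the GLY cows were each lost in 12 of the 31 fits with a cow left out, chosen after seeing the data, with adjusted p (edgeR) up to 0.28 without cow 912.

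Of the 670 genes at an interaction p under 0.05, 359 had a diet contrast under 0.05 in the GLY cows only and 141 in the control cows only. In 17 genes both contrasts were under 0.05 with opposite signs, in 1 gene with the same sign, and in 152 genes neither was. The diet contrasts had opposite signs in 602 of the 670 (89.9%) against 41.6% of all genes tested, a split that choosing by the interaction largely produces. Leaving out each cow in turn kept 235 of the 670 under 0.05 throughout. Without cow 912, 268 of the 670 lost that mark, and 15 of these fell under the read minimum. Over all 12180 expressed genes the diet contrasts in the control and the GLY cows, which share no cow, had Pearson's r = 0.242 and Spearman's rho = 0.282 across genes, and 59.4% of genes had the same sign.

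**Figure D1:**
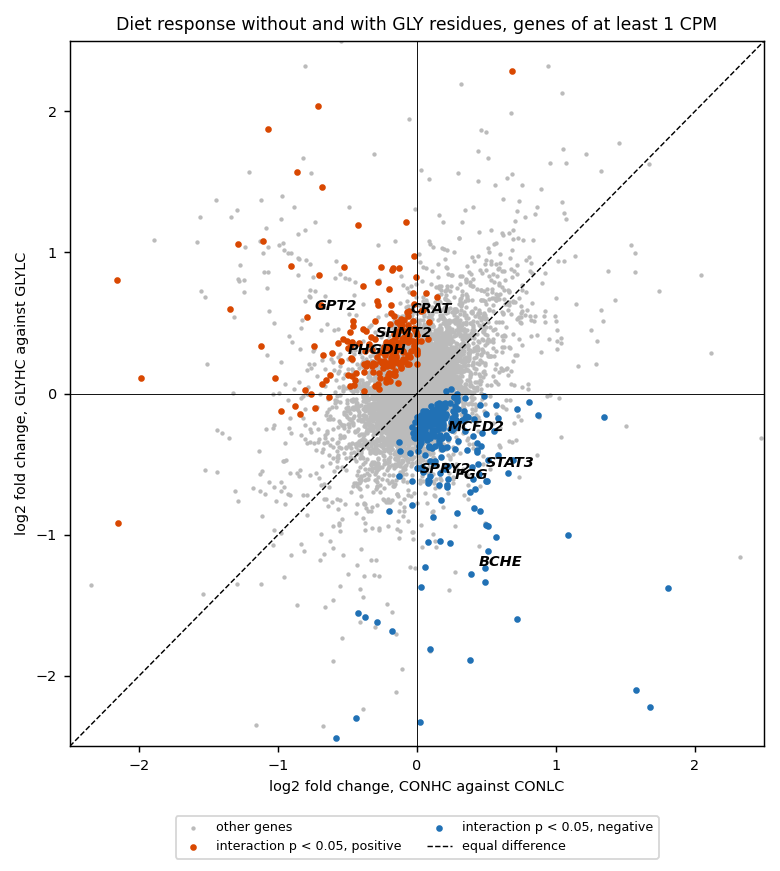
Log2 fold change of the high against the low CFP in the control cows (x axis) and in the GLY cows (y axis), 1 point for each of the 12180 genes with at least 1 CPM in at least 7 cows, of which 16 lie outside the axes. Genes with an unadjusted interaction p under 0.05 lie away from the dashed line of equal difference, in orange with a positive and in blue with a negative interaction, and GPT2 lies at −0.79 and 0.54.

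GPT2, the mitochondrial alanine aminotransferase that links alanine to pyruvate, had the smallest interaction p. Its level in CONLC ran from 12.9 CPM over a median of 16.8 to 26.4 CPM, and in CONHC from 7.26 over 10.5 to 13.9 CPM. In GLYLC it ran from 5.69 over 9.37 to 13.6 CPM, and in GLYHC from 9.72 over 14.0 to 20.8 CPM. The order of the diets was thus reversed between the treatments, with CONLC highest, and the ranges of high and low CFP overlapped within each treatment. The log2 fold change of high against low CFP was −0.79 ± 0.18 (SE, n = 16 cows) in the control cows and 0.54 ± 0.19 (SE, n = 15 cows) in the GLY cows. The interaction was 1.33 ± 0.26 (95% interval 0.80 to 1.86), with an adjusted p of 0.251 in edgeR, 0.00824 in DESeq2 and 0.9995 in limma voom. It lay between 1.23 and 1.43 when each cow was left out in turn. At the low CFP, GPT2 was 0.88 ± 0.19 lower in GLYLC than in CONLC, 1 of 10 genes called in that comparison (adjusted p = 0.0871, edgeR, 0.0628% of genes called), and 9 of the 10 had more than 50% of their CPM in cow 912, GPT2 being the exception. That call of GPT2 was lost in 26 of the 31 fits with a cow left out, chosen after seeing the data, and most of these fits, among them the one without cow 912, called no gene there.

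**Figure D2:**
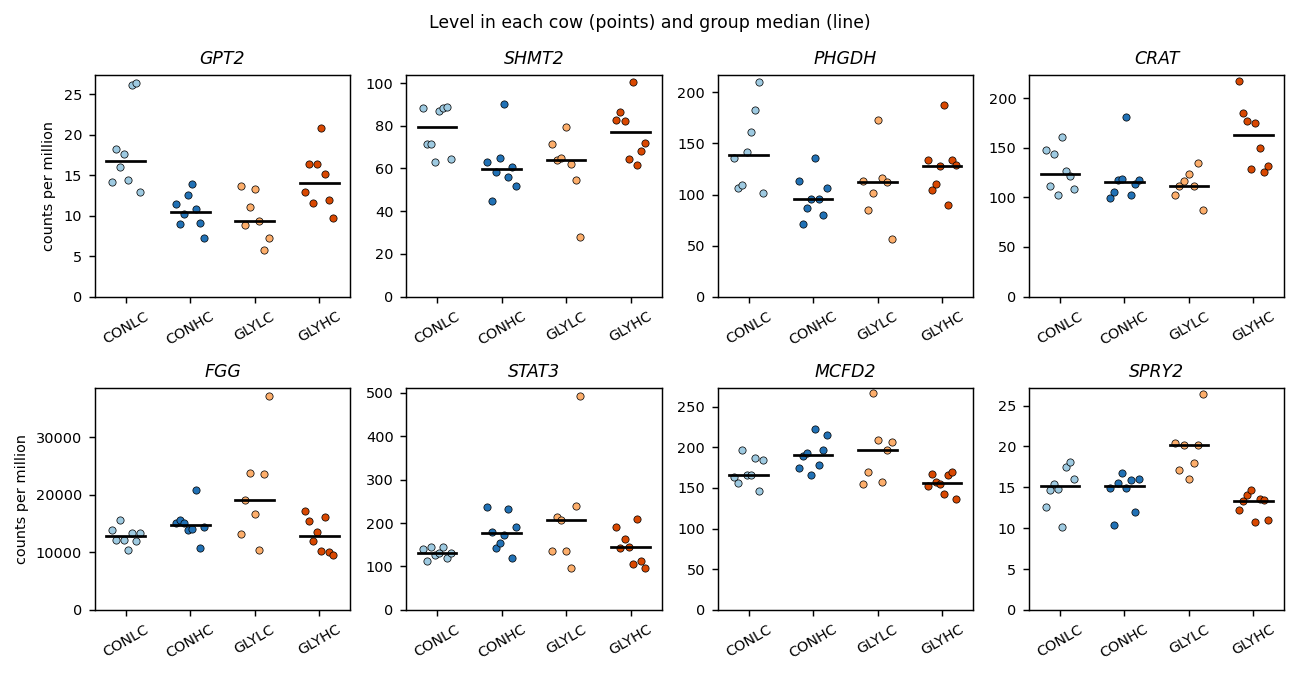
Level in CPM (y axis, from 0) of 8 genes in each cow of the 4 feeding groups (x axis), with points for cows and a line for the group median. GPT2, SHMT2 and PHGDH have their highest median in CONLC, CRAT has it in GLYHC, and FGG, STAT3, MCFD2 and SPRY2 have it in GLYLC.

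Genes of serine synthesis and of the ATF4 response, the programme by which cells answer amino acid shortage and protein folding stress, held 5 positive and 1 negative of 22 members at an interaction p under 0.05, where all genes had 1.9% and 2.31%. The positive members were SHMT2, PSPH, PHGDH, ATF5 and PYCR1, and the negative one was CHAC1. In the control cows 7 of the 22 were lower at the high CFP at p under 0.05 and none higher, where 3.25% and 2.71% of all genes were. In the GLY cows 4 were lower and 1 higher, where 7.45% and 5.06% of all genes were. The median interaction of the list was 0.01, as over all genes (0.01), and 0.28 without cow 912, in which the list stood at its highest score of all cows. Without that cow 7 members were at an interaction p under 0.05.

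SHMT2, which splits serine into glycine and a one-carbon unit in mitochondria, ran from 63.1 over a median of 79.3 to 88.9 CPM in CONLC, from 44.6 over 59.6 to 90.4 CPM in CONHC, from 27.9 over 64.2 to 79.4 CPM in GLYLC and from 61.5 over 77.2 to 100 CPM in GLYHC. The medians crossed, with a lower level at the high CFP in the control cows and a higher one in the GLY cows, and all ranges overlapped. Its diet difference was −0.35 ± 0.15 and 0.35 ± 0.16, and the interaction 0.70 ± 0.22 (unadjusted p = 0.00305). Without cow 912 the interaction of SHMT2 was 0.57. PHGDH, the first enzyme of serine synthesis, had medians of 139 CPM in CONLC, 95.5 in CONHC, 113 in GLYLC and 128 in GLYHC, within 56.4 to 210 CPM over all cows. Its interaction was 0.78 ± 0.26 (unadjusted p = 0.00497), and 0.66 without cow 912. The diet difference of PHGDH was mainly in the control cows (−0.55 ± 0.18 against 0.23 ± 0.18).

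PSPH, the last enzyme of serine synthesis, had an interaction of 1.94 ± 0.63, and its levels were skewed by single cows. Its median lay between 8.61 and 12.8 CPM in every group, while CONLC 260 reached 72.7 CPM and GLYHC 131 reached 50.9 CPM. Leaving out GLYHC 131 brought the interaction of PSPH to 1.28. ATF5, a transcription factor of the same response, had medians of 185 CPM in CONLC, 112 in CONHC, 159 in GLYLC and 138 in GLYHC, with an interaction of 0.76 ± 0.31. PYCR1, the last enzyme of proline synthesis, was lower at the high CFP in both treatments, by −2.15 ± 0.41 in the control and −0.92 ± 0.40 in the GLY cows, so here the interaction of 1.24 ± 0.57 (1.57 without cow 912) is a smaller difference and not an opposite one. Without GLYHC 117 the unadjusted p of ATF5 and PYCR1 in the edgeR fit was 0.0506 and 0.0848. CHAC1, a glutathione-degrading enzyme, was at most 0.357 CPM in 30 cows and 7.49 CPM in cow 912, and its interaction of −3.30 went to −0.52 without that cow. ATF5 and PHGDH are among the genes that the study named from these same cows, so their place here is not independent evidence.

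**Figure D3:**
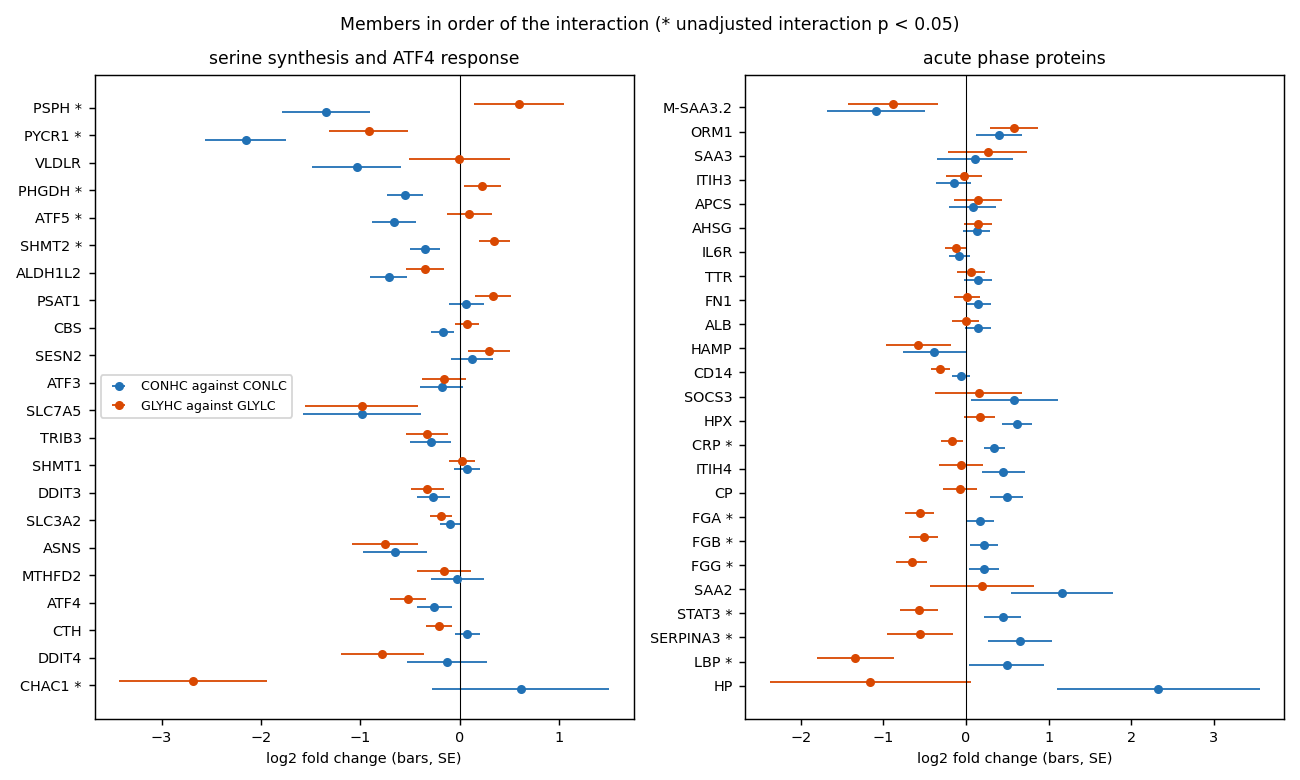
Log2 fold change of high against low CFP (x axis, bars for SE) in the control cows (blue) and the GLY cows (orange) for the 22 members of the serine and ATF4 list and the 25 of the acute phase list, ordered by the interaction, with a star at an unadjusted interaction p under 0.05. In the left panel 5 of the 6 starred genes have the orange point to the right of the blue, and in the right panel all 7 starred genes have it to the left.

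Fuel metabolism had small counts and mostly positive values. Of all genes 1.9% were positive and 2.31% negative at an interaction p under 0.05, and the median over all genes was 0.01. Among 20 tested genes of gluconeogenesis and propionate entry 2 were positive at p under 0.05 and none negative, GPT2 and PPARGC1A, and 17 of the 20 values were above 0. The list median of 0.07 was 0.02 without cow 912, which had the lowest score of all cows on this list, −0.50 against −0.41 in the next cow. PPARGC1A, a coactivator of gluconeogenic and mitochondrial genes, had an interaction of 0.63 ± 0.24, with medians of 17.3 CPM in CONLC, 13.7 in CONHC, 13 in GLYLC and 16.6 in GLYHC. Among 23 genes of glycolysis and the pentose phosphate pathway TPI1 and GPI were positive and none negative, with a list median of 0.26 (0.15 without cow 912). TPI1, triosephosphate isomerase, had medians of 133 CPM in CONLC, 93.4 in CONHC, 101 in GLYLC and 110 in GLYHC. Its diet difference was −0.48 ± 0.13 in the control cows and 0.05 ± 0.13 in the GLY cows. GPI, glucose-6-phosphate isomerase, gave −0.45 ± 0.16 and 0.10 ± 0.16, an interaction that was 0.42 without cow 912. The study named both TPI1 and GPI from these cows.

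Among 25 genes of fatty acid oxidation and ketogenesis CRAT and HADHA were positive and none negative at p under 0.05, where 1.9% and 2.31% of all genes were. Of the 25 values 22 were above 0, and the list median was 0.19 (0.12 without cow 912). CRAT, carnitine acetyltransferase, ran from 102 over a median of 124 to 161 CPM in CONLC, from 99.9 over 116 to 181 CPM in CONHC, from 87.4 over 112 to 135 CPM in GLYLC and from 125 over 162 to 218 CPM in GLYHC. GLYHC was the group that stood out, and its range overlapped that of GLYLC only between 125 and 135 CPM. The diet difference of CRAT was −0.10 ± 0.13 and 0.52 ± 0.13. Its interaction was 0.62 ± 0.18 (unadjusted p = 0.00184), and that p was at most 0.00394 with any 1 cow left out. The study listed CRAT among CFP-responsive genes from these same cows, so its place here is not independent evidence. HADHA, a subunit of the mitochondrial trifunctional protein, had a smaller interaction of 0.37 ± 0.16 (0.30 without cow 912). Lipogenesis, cholesterol synthesis, bile acid synthesis and transport and the urea cycle had no member at p under 0.05 among 23, 23, 16 and 12 tested, and their median interactions were 0.21, 0.01, 0.16 and 0.08. Without cow 912 these medians were 0.15, 0.01, 0.06 and 0.01.

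The acute phase list had the most negative members outside the muscle markers. It holds plasma proteins that rise in inflammation, others that fall (ALB, TTR and AHSG), and signalling genes (STAT3, SOCS3 and IL6R). Its counts and median are therefore not a direction of inflammation. Of 25 members 7 had a negative interaction at p under 0.05 and none a positive one, and the list median was −0.44. Without cow 912 the median was −0.21 and 5 members were under 0.05. At the high CFP 3 members were higher in the control cows and 6 lower in the GLY cows at p under 0.05, with none the other way round in either. Of all genes 2.31% were negative for the interaction, 2.71% higher in the control and 7.45% lower in the GLY cows. The negative members were the fibrinogen chain genes FGA, FGB and FGG, the transcription factor gene STAT3, and LBP, CRP and SERPINA3. The last 3 were outside the naming rule and are given because the count turns on them.

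FGG ran from 10460 over a median of 12740 to 15630 CPM in CONLC and from 10710 over 14690 to 20780 CPM in CONHC. In GLYLC it ran from 10370 over 19050 to 37160 CPM, and in GLYHC from 9492 over 12770 to 17220 CPM. GLYLC was both the highest and the most variable group, cow 912 was its maximum, and all ranges overlapped. The diet difference of FGG was 0.22 ± 0.18 in the control and −0.66 ± 0.19 in the GLY cows, an interaction of −0.88 ± 0.26 (unadjusted p = 0.00207) that was −0.67 without cow 912. FGB and FGA had interactions of −0.74 ± 0.24 and −0.73 ± 0.24. Without cow 912 they were −0.60 and −0.54.

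STAT3 had medians of 130 CPM in CONLC, 176 in CONHC, 208 in GLYLC and 144 in GLYHC. Its CONLC cows lay between 114 and 145 CPM, whereas the GLYLC cows spread from 95.5 to 492 CPM. Its interaction was −1.01 ± 0.32 and −0.68 without cow 912. CRP, C-reactive protein, differed by 0.34 ± 0.13 in the control and −0.17 ± 0.13 in the GLY cows, and its interaction of −0.51 was −0.50 without cow 912. LBP, which binds bacterial lipopolysaccharide, and SERPINA3, a protease inhibitor, had an unadjusted p of 0.0592 and 0.129 in the edgeR fit without that cow. HP, haptoglobin, varied from 9.75 to 19490 CPM within GLYLC alone and had an interaction of −3.48 ± 1.72 (unadjusted p = 0.0519), which was −0.71 without cow 912.

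Complement components had 4 negative and no positive members of 29 at an interaction p under 0.05, where 2.31% and 1.9% of all genes were. Of the 29 values 25 were below 0, with a list median of −0.14 and of −0.15 without cow 912. The median over all genes was 0.01 with all cows. In the control cows 8 members were higher at the high CFP at p under 0.05, and in the GLY cows 4 were lower, where 2.71% and 7.45% of all genes were. C4BPB and C4BPA, the chains of C4b-binding protein, had interactions of −0.62 ± 0.20 and −0.57 ± 0.21. For C4BPB the medians were 94.5 CPM in CONLC, 109 in CONHC, 121 in GLYLC and 93 in GLYHC. The membrane regulators CD46 and CD59 had interactions of −0.49 ± 0.18 (−0.39 without cow 912) and −0.21 ± 0.10. CD59, named by the study from these cows, differed by 0.25 ± 0.07 in the control and 0.03 ± 0.07 in the GLY cows, and its unadjusted p of 0.0323 became 0.0686 without GLYLC 905.

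Coagulation and fibrinolysis had 2 positive and 2 negative of 28 at p under 0.05, where 1.9% and 2.31% of all genes were. MCFD2, which with LMAN1 carries coagulation factors V and VIII out of the endoplasmic reticulum, ran from 146 over a median of 166 to 197 CPM in CONLC and from 166 over 191 to 222 CPM in CONHC. In GLYLC it ran from 155 over 197 to 267 CPM, and in GLYHC from 136 over 156 to 169 CPM. The high CFP thus had the higher median in the control cows and the lower one in the GLY cows, with overlapping ranges. The interaction was −0.48 ± 0.13 (unadjusted p = 0.00083) and −0.47 without cow 912. MCFD2 too was named by the study from these cows.

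Immune response genes did not share one direction. Of all genes 2.31% were negative and 1.9% positive at an interaction p under 0.05. Of 37 interferon-stimulated genes 4 were negative and 1 positive, and the list median of −0.19 was −0.04 without cow 912. DDX58, the RNA sensor RIG-I, and UBE2L6, the conjugating enzyme of ISG15, had interactions of −0.53 ± 0.21 and −0.59 ± 0.24. Without cow 912 these interactions were −0.44 and −0.47. The control differences of DDX58 and UBE2L6 were 0.45 ± 0.14 and 0.41 ± 0.17, and the GLY differences −0.08 ± 0.15 and −0.18 ± 0.17. PARP9 and IFIT5 had an unadjusted p of 0.134 and 0.114 in the edgeR fit without cow 912. IFI6 went the other way at 1.60 ± 0.73. The highest cow for IFI6 was GLYHC 117 at 142 CPM, against group medians of 7.92 to 14.1 CPM. Its gap to the next GLYHC cow was too small for the single-cow flag used below. Without GLYHC 117 the interaction of IFI6 was 1.05, and the unadjusted p in the edgeR fit was 0.125. Antigen processing and presentation had 2 positive members of 25 and none negative. BOLA, a class I histocompatibility gene of a family whose reads are hard to assign, was among them at 1.16 ± 0.42, with GLYHC 117 again the highest cow at 618 CPM. Of 25 macrophage and Kupffer cell markers none had an interaction p under 0.05. At p under 0.05, 7 were higher at the high CFP in the control and 12 in the GLY cows, where 2.71% and 5.06% of all genes were.

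Growth factor signalling had 2 negative feedback inhibitors among 22 genes of the EGFR and ERK list and none positive, where 2.31% and 1.9% of all genes were. SPRY2, which dampens receptor tyrosine kinase signalling, ran from 10.2 over a median of 15.1 to 18.1 CPM in CONLC, from 10.4 over 15.2 to 16.8 CPM in CONHC, from 16.1 over 20.2 to 26.4 CPM in GLYLC and from 10.7 over 13.4 to 14.7 CPM in GLYHC. Every GLYLC cow was above every GLYHC cow, while the control groups had nearly the same median. SPRY2 fell by 0.62 on the log2 scale at the high CFP in the GLY cows (SE 0.12, adjusted p = 0.0344, edgeR) and differed by −0.04 ± 0.11 in the control cows. The diet call of SPRY2 in the GLY cows was lost without GLYLC 912 (adjusted p = 0.244, edgeR), GLYHC 32 (0.106) or GLYHC 154 (0.109). Its interaction was −0.58 ± 0.16 and −0.50 without cow 912 (unadjusted p = 0.0025). ERRFI1, an inhibitor of the EGF receptor that the study named, had an interaction of −1.21 ± 0.43 and of −0.95 without cow 912, with medians of 252 CPM in CONLC, 344 in CONHC, 293 in GLYLC and 133 in GLYHC. CCND1, the cell cycle regulator cyclin D1, was the second of the positive genes by p at 1.62 ± 0.45. Its medians were 7.81 CPM in CONLC, 5.09 in CONHC, 4.01 in GLYLC and 7.43 in GLYHC, with overlapping ranges. The immediate early genes had 2 positive members of 26, FOSB at 2.43 ± 0.86 and NR4A1 at 1.32 ± 0.50, with group medians of at most 1.57 and 1.51 CPM, and their list median of 0.24 was 0.44 without cow 912.

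For the genes that handle foreign compounds, the counts at an interaction p under 0.05 stand beside 4.21% of all genes. In lists this short they do not tell these genes apart from the rest. The aryl hydrocarbon receptor pathway had none of 7, the NRF2 and antioxidant list none of 26, the cytochrome P450 enzymes 1 of 17 and phase II conjugation 1 of 22. CYP1A1, the classical target of the aryl hydrocarbon receptor, was lower at the high CFP by −0.61 ± 0.18 in the control and −0.32 ± 0.18 in the GLY cows, with an interaction of 0.29 (95% interval −0.22 to 0.80) that was 0.14 without cow 912. The P450 member under 0.05 was a CYP4F2 gene with 86.5% of its CPM in cow 912. The phase II member was GSTM3, a glutathione transferase that the study named from these cows. GSTM3 had medians of 178 CPM in CONLC, 218 in CONHC, 214 in GLYLC and 166 in GLYHC, an interaction of −0.61 ± 0.21, and −0.72 without cow 912.

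Other genes with the smallest p among those at 1 CPM or more covered many functions. BCHE, butyrylcholinesterase, ran from 0.997 over a median of 1.66 to 2.12 CPM in CONLC, from 1.44 over 2.26 to 2.94 CPM in CONHC, from 1.95 over 2.33 to 12.9 CPM in GLYLC and from 1.01 over 1.64 to 2.01 CPM in GLYHC. Cow 912 held the 12.9 CPM, and the interaction of −1.67 ± 0.45 was −0.91 without it (unadjusted p = 0.000686). MFSD12, a lysosomal cysteine transporter, had an interaction of 1.05 ± 0.30, with medians of 10.3 CPM in CONLC, 10.2 in CONHC, 8.42 in GLYLC and 15.5 in GLYHC. UNC50 and the zinc finger gene ZNF329 had small, tight interactions of −0.30 ± 0.09 and −0.46 ± 0.13. SH3D21 (0.97), CCDC159 (0.76), PROB1 (1.81) and STAG3 (2.1), a meiotic cohesin subunit, were positive. TRIM31, a ubiquitin ligase, was negative at −3.67 ± 1.03 with group medians of 0.45 to 2.14 CPM, and LAG3, an inhibitory receptor of T cells, was positive at 2.15 ± 0.66 with GLYHC 117 holding 23.3% of its CPM.

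CDH2, N-cadherin, was positive at 0.82 ± 0.27. TPCN2, a lysosomal cation channel, was positive at 0.56 ± 0.19, the porphyrin transporter ABCB6 at 0.51 ± 0.16 and the tubulin gene TUBB4A at 0.60 ± 0.25. For TPCN2 and CDH2 the high CFP had the lower median in the control cows and the higher one in the GLY cows, whereas TUBB4A differed by −0.63 ± 0.17 in the control cows and by −0.03 ± 0.18 in the GLY cows. The study named CDH2, TPCN2 and TUBB4A from the same cows, TUBB4A for the CFP. It named TPCN2 and CDH2, like MCFD2, ERRFI1 and LURAP1L, for GLYHC against CONHC, a component of the interaction. Their values are thus not independent evidence, and LURAP1L is not described here. The lysosomal peptidases DPP7 and TPP1 were positive at 0.95 ± 0.34 and 0.28 ± 0.13, the 2 of 34 lysosomal genes under 0.05. Without cow 912 the unadjusted p of TPP1 in the edgeR fit was 0.08. Study-named genes with close diet differences in both treatments included HNRNPH3, a splicing factor (−0.24 ± 0.06 and −0.25 ± 0.07, interaction −0.01, 95% interval −0.20 to 0.18), and PLCD4, a phospholipase C (1.14 ± 0.29 and 0.98 ± 0.30, interaction −0.16, 95% interval −0.99 to 0.67).

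The largest fitted interactions belonged to genes at or near 0 reads in most cows, and several of them moved far when 1 cow was left out. HOPX, RBP2, S100G and CCL24 were among the 10 negative genes with the smallest p, and each held 50.8% to 87.5% of its CPM in cow 912. Without that cow their unadjusted p was 0.069, 0.305, 0.199 and 0.0567. Among the 15 smooth muscle markers 7 were negative, with a list median of −0.88. Without cow 912 that median was −0.13 and no marker was under 0.05. The contractile genes ACTG2 and MYH11 reached 354 and 737 CPM in cow 912, against at most 2.01 and 51.2 CPM in the other GLYLC cows. Of the intestinal markers 3 of 14 were negative, with a list median of −5.58 that was 0.29 without that cow. BCO1, GDPD2 and SLC5A4 had the largest negative and LCN15, THBS4 and KRT1 the largest positive fitted values. For BCO1, GDPD2, SLC5A4 and LCN15 the fitted value has no fixed size, since the groups compared were at or near 0 reads. THBS4, a matrix protein, stood at 49.4 CPM in CONLC 103, with 85.7% of all its CPM, and COL1A1, a collagen chain, at 434 CPM in the same cow. KRT1, a keratin of the epidermis, reached 4.66 CPM in GLYHC and at most 0.0786 CPM in any cow of the other groups, and GLYHC 154 held 52.3% of it. The fitted interaction of KRT1 lay between 6.68 and 8.82 with any 1 cow left out, at an unadjusted p of at most 0.038 in the edgeR fit.

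**Figure D4:**
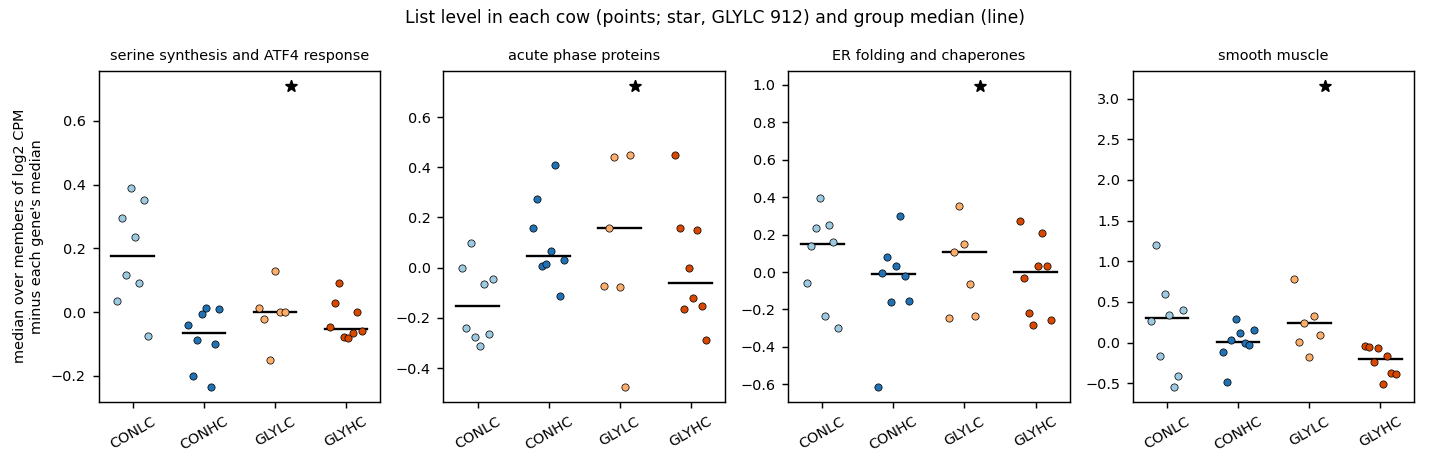
Level of 4 gene lists in each cow (points) of the 4 feeding groups (x axis), with the group median as a line; the y axis is the median over members of log2 CPM minus that gene's median over cows. Cow 912, drawn as a star, is the highest cow for all 4 lists, at 0.71 for serine synthesis and ATF4, 0.73 for acute phase proteins, 0.996 for endoplasmic reticulum chaperones and 3.16 for smooth muscle.

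For some lists the members under 0.05 were mostly for the diet and few or none for the interaction, where 3.25% of all genes were lower at the high CFP in the control cows, 7.45% lower in the GLY cows and 2.31% negative for the interaction. Of 22 endoplasmic reticulum chaperones none had an interaction p under 0.05, while none was lower at the high CFP in the control cows and 8 in the GLY cows. Their median interaction of −0.14 became 0.18 without cow 912, so even its sign depended on 1 cow. Of 23 cytosolic heat shock genes 9 were lower at the high CFP in the control and 16 in the GLY cows, and 1 had a negative interaction. Of 34 proteasome subunits 8 and 20 were lower, and 2 had a negative interaction. The respiratory chain (44 tested), the cytosolic ribosomal proteins (72) and the circadian clock (18) had no member under 0.05, with medians of 0.05, −0.05 and 0.15 (0.02, −0.08 and 0.10 without cow 912).

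**Figure D5:**
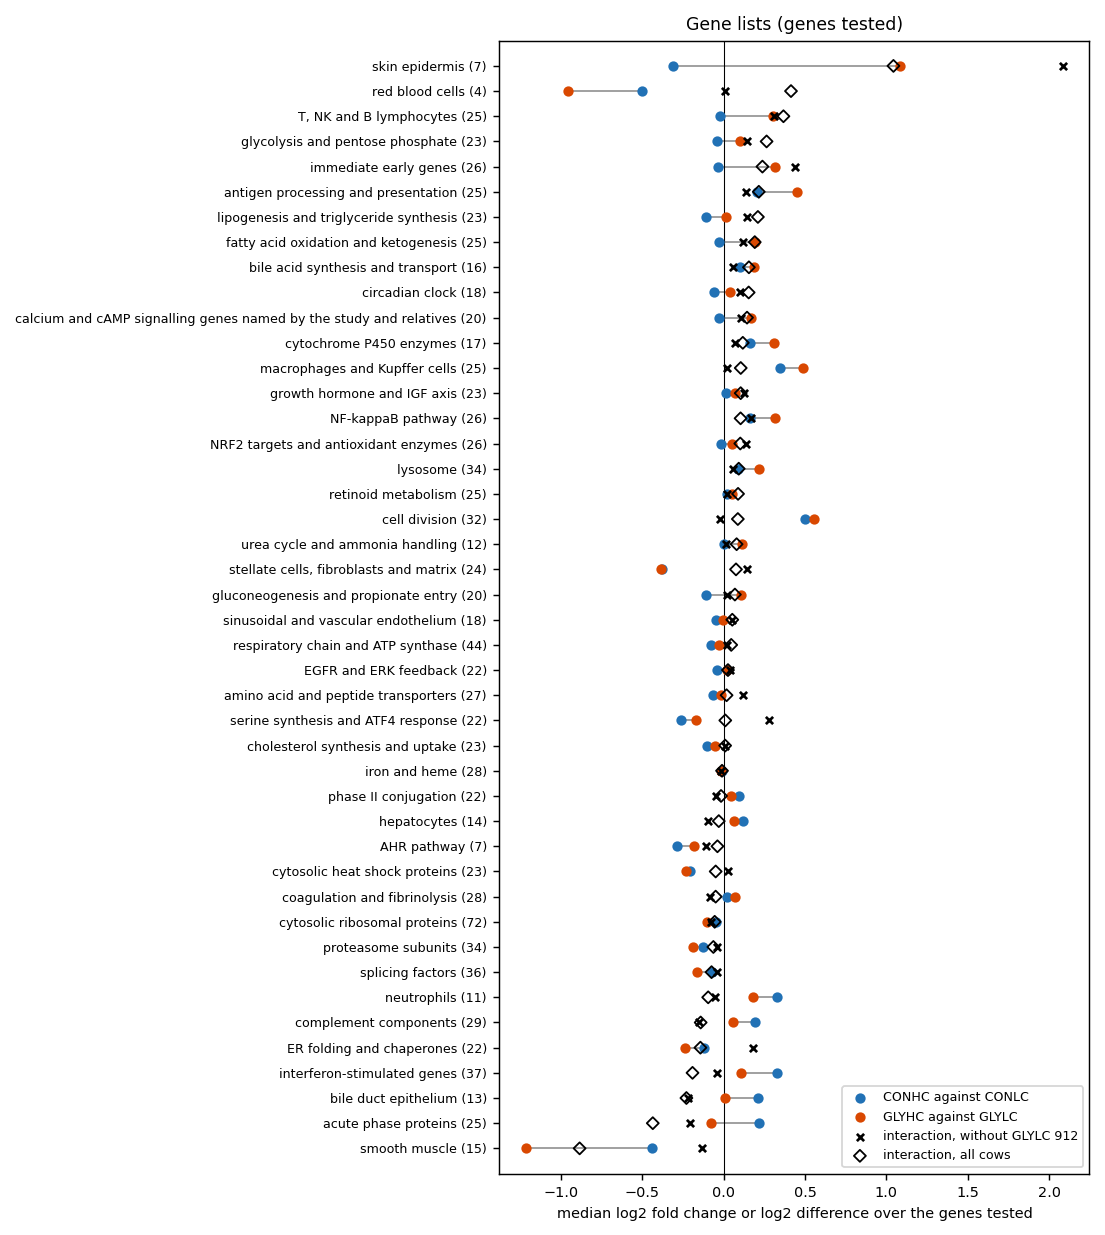
Median over the genes tested (number in brackets) of the log2 fold change of high against low CFP in the control cows (blue) and the GLY cows (orange), and of the interaction with all cows (diamond) and without cow 912 (cross), for 44 of the 45 lists, ordered by the interaction. The intestinal list is left out for its scale, the acute phase and smooth muscle lists lie lowest, and crosses far from their diamonds include those of smooth muscle, skin epidermis (1.04 with all cows, 2.08 without cow 912), red blood cells (0.41 and 0.01) and chaperones.

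The interaction was also read in the genes called for the CFP over all cows together. With treatment as a covariate, 231 genes were called between high and low CFP (1.45% of genes tested), 108 higher and 123 lower at the high CFP. Of these 231, 224 had the same sign in the control and the GLY cows, whereas 41.6% of all genes tested had opposite signs. Choosing by the diet effect over both treatments largely produces that agreement. In 162 the change was larger in the GLY cows, a count for which no share over all genes was taken. An interaction p under 0.05 was found in 16 of the 231 (6.93%), against 4.21% of all genes. It was 19 of 434 (4.38%) with DESeq2 and 5 of 136 (3.68%) without cow 912, each a smaller share than 6.93%. The 4.21% belongs to the edgeR fit with all cows and is not the background of these fits. Without cow 912, 547 of all 15752 genes tested had an interaction p under 0.05, and for DESeq2 the share of all genes is not given here. Whether an excess over all genes remained in these fits was not tested. With any 1 cow left out, which also changes the genes called, the count among the called genes ran from 3 (without GLYHC 32) to 25 (without CONLC 169). The lowest adjusted interaction p among the 231 was 0.9985. The median absolute interaction of the 231 was 0.239 log2 units, beside a median absolute diet difference of 0.626. These genes were chosen for their diet difference, so its larger size largely follows from the choice. The 16 included the muscle genes ACTG2, TAGLN and CNN1 and the intestinal genes S100G and BCO1, each with its highest level in cow 912, besides PYCR1, IFI6 and TNFRSF21 described above.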

How the data were processed

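RNA of 31 liver biopsies was sequenced by the authors as paired-end stranded mRNA libraries. After trimming (Trim Galore) and alignment to the bovine genome UMD3.1 (HISAT2 2.1.0), HTSeq 0.8.0 gave reads per Ensembl gene. Whether it used strand is not given in the sources used here. The raw counts deposited by the authors, whole reads per gene with no normalization, were used. A deposited table of normalized values was not used. Gene symbols were those of the count table, and 1532 tested genes had none.

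Groups followed the labels, and the animal number only names a cow. CPM were scaled by trimmed mean of M-values. A quasi-likelihood F test (edgeR 4.0.16, R 4.3.3) with 1 mean per feeding group gave all contrasts, 95% intervals and standard errors, with Benjamini-Hochberg adjustment over 15916 genes with at least 20 reads. Depth was 11675775 to 36675542 reads per cow, and precision is given by the standard errors between cows. The pipeline was tested on simulated data. Alternatives were other scalings (relative log expression, upper quartile), no filter on low counts or filterByExpr with a minimum of 10, a robust fit, an adjusted p under 0.05, DESeq2 1.42.0, limma 3.58.1 voom with sample weights, and each cow left out. After seeing the data, leave-one-out fits of single calls within diets and treatments and DESeq2 without cow 912 were added.

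Named genes were the 10 smallest interaction p in each direction among genes with a symbol and at least 1 CPM in at least 7 cows, up to 4 members per list and its most abundant one, genes named by the study, and the 3 largest differences in each direction at p under 0.05. Of these, the ones with values of interest to a group are printed. The members and the 45 gene lists were chosen with earlier results of these data known. Some genes outside this rule are named where a count rests on them and were chosen after their values were seen. Symbols on more than 1 gene identifier were counted once per identifier.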

Additional observations from a re-analysis of the deposited data

Results flagged for a closer look

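GPT2 was the only gene called for a diet difference that differed between the GLY and the control cows, and DESeq2 alone called it. Its interaction was 1.33 log2 units in edgeR. The adjusted p was 0.00824 in DESeq2, 0.251 in edgeR and 0.9995 in limma voom.

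Single cows lay far from the rest of their group in 54 of 292 combinations of gene and feeding group. The flag sets the gap to the next cow against the range of the group, and for normally spread values chance flags about 1 in 20. The genes are not independent of each other, their CPM are often skewed, and several were named for extreme values in these cows. An excess over 1 in 20 is therefore built in and is not read as a result. Cow GLYLC 912 gave 15 of the 54. It was the highest of its group for STAT3 (492 CPM), LBP (1641 CPM), SPRY2 (26.4 CPM), BCHE (12.9 CPM), CCL24 (44.2 CPM), HOPX (124 CPM), RBP2 (90.5 CPM), S100G (176 CPM), BCO1 (46.8 CPM), GDPD2 (2.41 CPM), ACTG2 (354 CPM), MYH11 (737 CPM), CHAC1 (7.49 CPM) and HP (19490 CPM), and the lowest for CDH2 (56.1 CPM).

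CONHC 134 was the highest of its group for SHMT2 (90.4 CPM), CRAT (181 CPM), SH3D21 (16.2 CPM) and MYH11 (48.7 CPM). GLYHC 117 was the highest for BOLA (618 CPM), PROB1 (4.64 CPM), LAG3 (6.64 CPM) and BCO1 (0.0714 CPM). GLYHC 131 was the highest for PHGDH (187 CPM), PSPH (50.9 CPM) and TPI1 (154 CPM), and GLYLC 209 for PSPH (19.5 CPM) and TPI1 (175 CPM). CONHC 144 was the highest for FGB (28920 CPM), SERPINA3 (1554 CPM) and HP (4435 CPM), and GLYHC 32 for SERPINA3 (1495 CPM), HP (6569 CPM) and TNFRSF21 (46.9 CPM). CONLC 166 was the highest for IFI6 (25.8 CPM), UBE2L6 (74.2 CPM) and HOPX (5.23 CPM), and CONHC 41 for IFI6 (46.6 CPM) and SLC5A4 (0.616 CPM). GLYHC 159 was the highest for TRIM31 (1.77 CPM), S100G (1.47 CPM) and LCN15 (2.02 CPM).

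Further highest values were UNC50 (27.9 CPM) and HOPX (10.2 CPM) in CONHC 208, PSPH (72.7 CPM) and STAG3 (6.77 CPM) in CONLC 260, and THBS4 (49.4 CPM) and COL1A1 (434 CPM) in CONLC 103. Single flags fell on PPARGC1A (28.1 CPM) in CONLC 169, MFSD12 (14.8 CPM) in GLYLC 102, THBS4 (1.61 CPM) in GLYHC 127, ACTG2 (1.66 CPM) in GLYHC 152, KRT1 (0.056 CPM) in CONHC 133 and KRT1 (0.0532 CPM) in GLYLC 905.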

How the results depend on the processing

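No gene was called for the interaction with another scaling, another filter on low counts, the robust fit, the stricter adjusted p, limma voom or any cow left out (0 to 0 genes), and DESeq2 called 1 with and 1 without independent filtering. Genes at an unadjusted interaction p under 0.05 ranged from 547 (without GLYLC 912) to 881 (without GLYLC 42) when a cow was left out. For the diet in the control cows DESeq2 called 27 genes with and 24 without independent filtering, limma voom 4, and leaving out a cow gave 0 to 7. For the diet in the GLY cows the count was 66 with relative log expression scaling, 11 with filterByExpr, 8 with the robust fit, 7 at an adjusted p under 0.05, 0 with limma voom, 143 and 109 with DESeq2, and 0 (without GLYLC 912, GLYHC 32 or GLYHC 154) to 150 (without GLYLC 147) with a cow left out. At an unadjusted p under 0.05 it was 1318 (without GLYLC 912) to 2190 (without GLYLC 544). The cause of these shifts was not tested. Among CFP-called genes the count with an interaction p under 0.05 was 16 of 231, 15 of 241 with relative log expression scaling, 19 of 434 with DESeq2, and 3 to 25 with a cow left out, being 5 of 136 without GLYLC 912. Of the named genes, HNRNPH3 changed sign with upper-quartile scaling (0.0006477) and without some cows (−0.0366 to 0.0213 with each cow left out), and PLCD4 without CONHC 208 (0.0179) or GLYLC 102 (0.048), with a range down to −0.33. No paired analysis was possible because the numbers in the labels are animal numbers and no number occurs in more than 1 group.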

Other observations

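The remaining gene lists held few members at an unadjusted interaction p under 0.05 (edgeR), where 4.21% of all genes were. The NF-kappaB pathway had 1 positive and 1 negative of 26, TRAF1 at 0.82 ± 0.29 and the chemokine gene CCL20 at −1.82 ± 0.76. The growth hormone and IGF axis had 2 positive of 23, the glucagon receptor gene GCGR at 0.30 ± 0.13 and the adiponectin receptor gene ADIPOR2 at 1.02 ± 0.45. Iron and heme had 2 positive of 28, ABCB6 and HFE. Amino acid and peptide transporters had SLC43A2 at 0.65 ± 0.27 and SLC15A1 at −1.13 ± 0.54 among 27. The study named SLC15A1 and ADIPOR2 from these same cows. Cell division had MCM2 at 0.69 ± 0.33 among 32, calcium and cAMP signalling genes, partly chosen by the study on these cows, had TPCN2 among 20, splicing factors had DHX8 at −0.41 ± 0.15 among 36, and retinoid metabolism had BCO1 among 25. Median interactions of these 8 lists lay between −0.07 and 0.14, and between −0.04 and 0.17 without cow 912.

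Of the cell type lists, T, NK and B lymphocytes had 1 positive and 2 negative of 25 entries, GZMA at 1.15 ± 0.54, IL7R at −0.78 ± 0.38 and JCHAIN at −1.63 ± 0.66, and their median interaction of 0.37 ran from 0.21 without GLYHC 117 to 0.52 without GLYLC 544. Endothelium had ENG at 0.51 ± 0.18 among 18, bile duct epithelium AGR2 among 13, stellate cells and fibroblasts COL1A1 among 24 (fitted interaction 0.24 without CONLC 103 and up to 3.13 without another cow), hepatocytes FGB among 14 and skin epidermis SFN and KRT1 among 7. Red blood cells (4 tested) and neutrophils (11 tested) had none.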
